A study of Mus musculus with 10 samples.

Results

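Thrombospondins, spondins and a small set of other matricellular genes were examined in myofibroblastic cancer-associated fibroblasts (myCAFs) of mouse pancreatic ductal adenocarcinoma, which had been split by CD90 at the cell surface. The 10 genes were chosen by name: Thbs1, Thbs2, Thbs3, Thbs4 and Comp (thrombospondins), Spon1 and Spon2 (spondins), and Tnc, Postn and Sparc. In this order they lie on chromosomes 2, 17, 3, 13, 8, 7, 5, 4, 3 and 11. All 10 were found among 48471 annotated genes, and all 10 passed the filter on low counts that left 15378 genes for testing. Tumours had grown in male C57BL/6J mice from transplanted KPC T-LOH organoids placed in the pancreas, which holds for both fractions. The CD90- and the CD90+ fraction had 5 libraries each, 1 of each fraction from every tumour pool. Pools 1 to 5 name 4, 1, 2, 3 and 1 animals in their titles, 11 in all, while the series text counts 5 mice, so n is given as pools. Neither the ages of the mice nor the other markers of the sorting gate are given in the sources used here.

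Matricellular proteins are secreted into the extracellular matrix but act mainly as modulators of cell adhesion, growth factor access and matrix assembly, not as load-bearing scaffolds. Thrombospondins are large multimeric glycoproteins that bind calcium. THBS1 and THBS2 are trimers with type 1 repeats that bind the receptor CD36, and THBS3, THBS4 and COMP are pentamers without these repeats. In tumours, fibroblasts are a main source of tenascin-C, periostin and SPARC, and matrix-rich stroma is a hallmark of pancreatic cancer.

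Libraries held 11738491 to 47709168 estimated reads, of which 3711407 to 28520473 fell on nuclear protein-coding genes. Mitochondrial rRNA took 35.6 to 84.4% of gene-assigned reads in CD90- and 10.5 to 44.8% in CD90+ libraries. Thy1, which encodes CD90 and checks the sort, was at 16.0, 10.2, 8.06, 5.98 and 2.07 CPM (counts scaled to a common library size by TMM) in the CD90- libraries of pools 1 to 5, and at 97.3, 102, 39.2, 89.8 and 117 CPM in the CD90+ libraries. Fibroblast markers were present in every library, with 9 of 9 tested. Their summed level was 4052 to 20455 CPM in the CD90- and 32400.2 to 53864 CPM in the CD90+ fraction, and 8 of 9 fell in the CD90- fraction while 0 rose. Of 10 cancer epithelial markers, 7 rose and 0 fell, with a summed level of 711 to 2955 CPM in CD90- and 179.8 to 1619 CPM in CD90+ libraries. Of 7 endothelial markers, 3 rose (Cdh5, Tie1 and Pecam1, named after their values were seen, at log2 folds of 4.86, 4.75 and 2.52) and 0 fell, with a summed level of 32.8 to 267 CPM in CD90- and 26.8 to 37.5 CPM in CD90+ libraries. Kdr, also named after its values were seen, was lower in 4 of 5 pools without passing (log2 fold -0.70, edgeR adjusted p = 0.078). The endothelial sum was lower in the CD90- library in 2 of 5 pools. Its 267 CPM came from the CD90- library of pool 2, with at most 62.3 CPM in any other library. The part of these marker lists in the results on the matricellular genes was not tested, nor was that of mitochondrial rRNA. In bulk libraries such as these, fewer cells of a type and less RNA per cell cannot be told apart.

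Most of the matricellular genes were lower in the CD90- fraction. In edgeR's test over all genes, 7 of the 10 fell and 0 rose: Thbs1, Thbs2, Thbs3, Spon1, Tnc, Postn and Sparc. Across all tested genes 12.9% were called, 7.05% as lower and 5.83% as higher. The median log2 fold (CD90- over CD90+) of the 10 was -2.41, against 0.04 over all tested genes. In 7 of the 10 the lowest CD90+ library lay above the highest CD90- library, which held for 4.62% of tested genes (the opposite order held for 0 of the 10 and 3.32% of tested genes), and 8 of the 10 were lower in 5 of 5 pools, against 14.5% of tested genes (13.5% were higher in 5 of 5). The 3 that did not pass were Thbs4, Comp and Spon2. When the share of mitochondrial rRNA entered the model, edgeR called 0 of all 15378 tested genes, and so 0 of the 10. At an unadjusted p under 0.05 were 882 of all tested genes and 6 of the 10 (Thbs1, Thbs2, Spon1, Tnc and Postn lower, Thbs4 higher at a log2 fold of 2.38). The log2 folds were then -2.51 (SE 0.98) for Thbs1, -3.26 (SE 0.82) for Thbs2, -1.31 (SE 1.09) for Thbs3 and -3.33 (SE 0.72) for Spon1. They were -3.34 (SE 1.37) for Tnc, -3.08 (SE 1.26) for Postn and -2.70 (SE 1.21) for Sparc. Spon2 was at -1.10 (SE 1.86) and Comp at -3.30 (SE 4.32). Each of these SEs was larger than in the fit without the covariate.

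**Figure D1:**
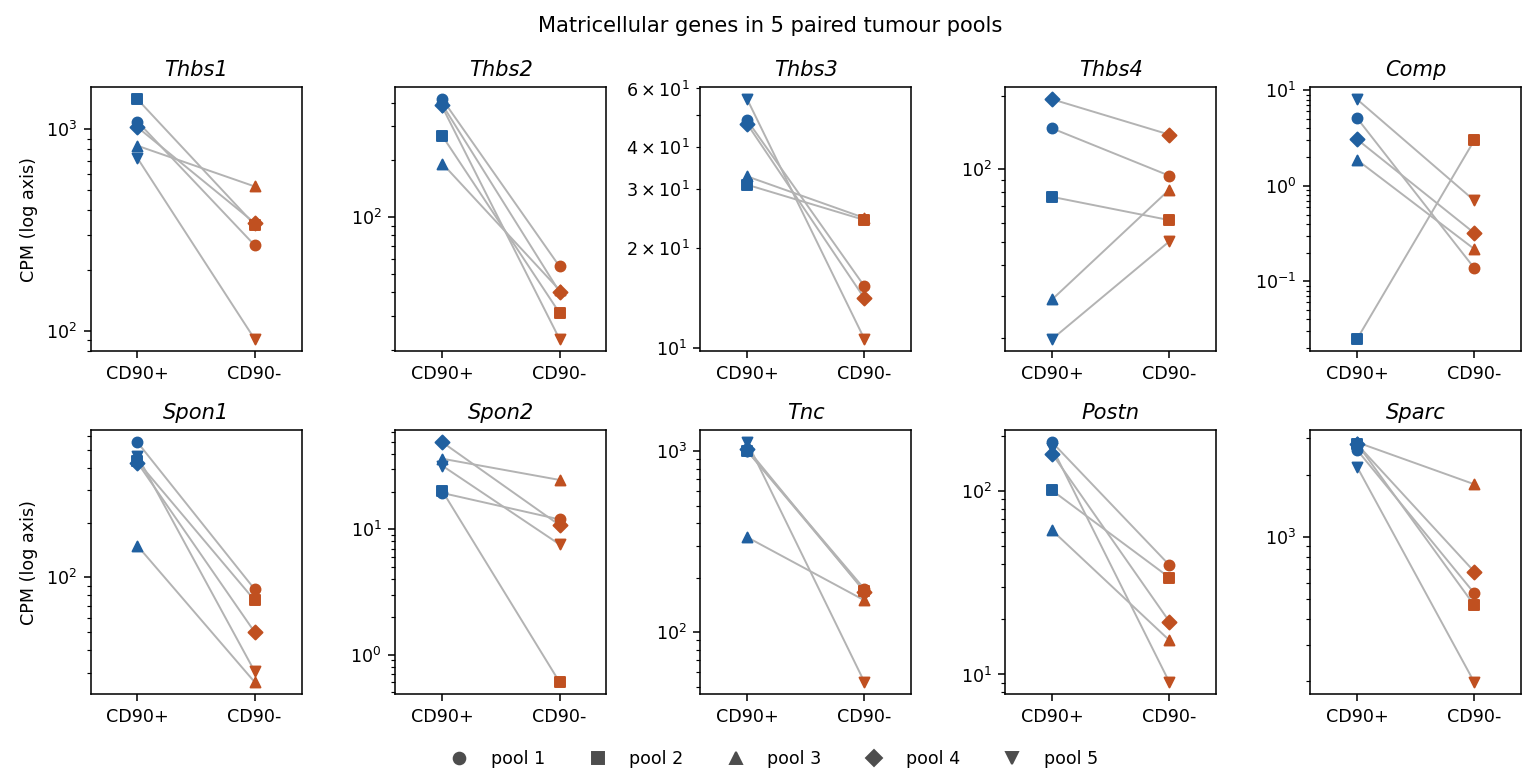
CPM (log axis) of each of the 10 genes in the CD90+ (blue) and CD90- (orange) library of every tumour pool, joined by a line within a pool, with 1 marker shape per pool. In 7 genes the CD90- points all lie below the CD90+ points, while lines run in both directions for Thbs4 and Comp and the Spon2 fractions overlap.

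Thbs2, an inhibitor of angiogenesis that also affects collagen fibril assembly, had the lowest log2 fold of the 10. It was at 54.8, 31.2, 41.2, 40.3 and 22.7 CPM in the CD90- libraries of pools 1 to 5 and at 417, 267, 191, 390.5 and 379.8 CPM in the CD90+ libraries. The fractions did not overlap, and the largest CD90- value was well under the smallest CD90+ value, that of pool 3. Its log2 fold was -3.11 (SE 0.25, edgeR adjusted p = 0.000365), an 8.65-fold lower level.

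Thbs1, which can activate latent TGF-beta and is also stored in platelets, was far more abundant and fell less. It was at 266, 336, 521, 344 and 91.2 CPM in the CD90- libraries and at 1092, 1409, 829, 1024 and 720.1 CPM in the CD90+ libraries, again without overlap. Its log2 fold was -1.87 (SE 0.30, edgeR adjusted p = 0.00595). The within-pool difference was smallest in pool 3, at -0.67, and largest in pool 5, at -2.98. Of 7 platelet markers 1 was abundant enough to test, and their summed level was 3.42 to 9.12 CPM in CD90- and 4.57 to 9.07 CPM in CD90+ libraries. Within pools the log2 difference of Thbs2 was below that of Thbs1 in 5 of 5 pools, by -0.89, -1.03, -1.54, -1.70 and -1.08, with a mean of -1.25 (SD 0.35, n = 5). The exact paired permutation test of this gap gave p = 0.0625. No smaller p can come from 5 pools, and after adjustment for the 4 gene pairs compared it was 0.25.

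Thbs3, a pentameric family member best known from cartilage and bone, was lower by a smaller amount. Its CD90- libraries held 15.3, 24.2, 24.6, 14.1 and 10.6 CPM and its CD90+ libraries 48.2, 30.9, 32.7, 47.0 and 55.7 CPM. The values of pools 2 and 3 lay closest together, and no CD90- library reached a CD90+ library. The log2 fold was -1.30 (SE 0.31, edgeR adjusted p = 0.0262). The call did not hold without pool 1, 4 or 5, at log2 folds of -1.21, -1.22 and -1.05 (edgeR adjusted p = 0.114, 0.0838 and 0.0526), or with a transcript length offset, at -1.44 (adjusted p = 0.0539). Without both pools 4 and 5 the log2 fold was -0.84 (adjusted p = 0.188).

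Thbs4, a pentamer of tendon and muscle matrix, had the log2 fold nearest to 0. Its CD90- libraries held 93.5, 61.4, 82.0, 138 and 50.2 CPM and its CD90+ libraries 147, 76.5, 28.9, 193 and 19.8 CPM. The CD90+ libraries of pools 3 and 5 were low and those of pools 1 and 4 high, so that the CD90- values lay inside the CD90+ range. Thbs4 was lower in the CD90- fraction in pools 1, 2 and 4 and higher in pools 3 and 5. The log2 fold was 0.26 (SE 0.36, edgeR adjusted p = 0.715), and it changed sign without pool 3 (-0.062), without pool 5 (-0.039) and without the block for the pool (-0.132).

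Comp, cartilage oligomeric matrix protein, was close to the limit of detection. Its CD90- libraries held 4, 89, 11, 3 and 19 reads and its CD90+ libraries 110, 1, 124, 100 and 82 reads in pools 1 to 5. In 4 of 5 pools the CD90- library had fewer reads, and pool 2 went the other way. The same CD90- library of pool 2 had the highest summed level of pericyte and smooth muscle markers, 445 CPM against 23.4 to 63.4 CPM in the other CD90- libraries and 127 to 399 CPM in the CD90+ libraries, and of endothelial markers, 267 CPM against at most 62.3 CPM in any other library. Whether these bear on Comp was not tested. The log2 fold of -2.84 had an SE of 1.54 (edgeR adjusted p = 0.287). Without pool 1, 3, 4 or 5 Comp was not called (edgeR adjusted p = 0.585, 0.439, 0.469 and 0.481). Without pool 2, the pool that went the other way, the log2 fold was -3.72 (adjusted p = 0.02). That fit called 674 of 15545 tested genes lower. DESeq2 and edgeR without a filter on low counts, each with all pools, also called Comp lower. These 2 settings called 1814 of 14781 and 1598 of 28069 tested genes lower, against 1084 of 15378 in the main fit.

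**Figure D2:**
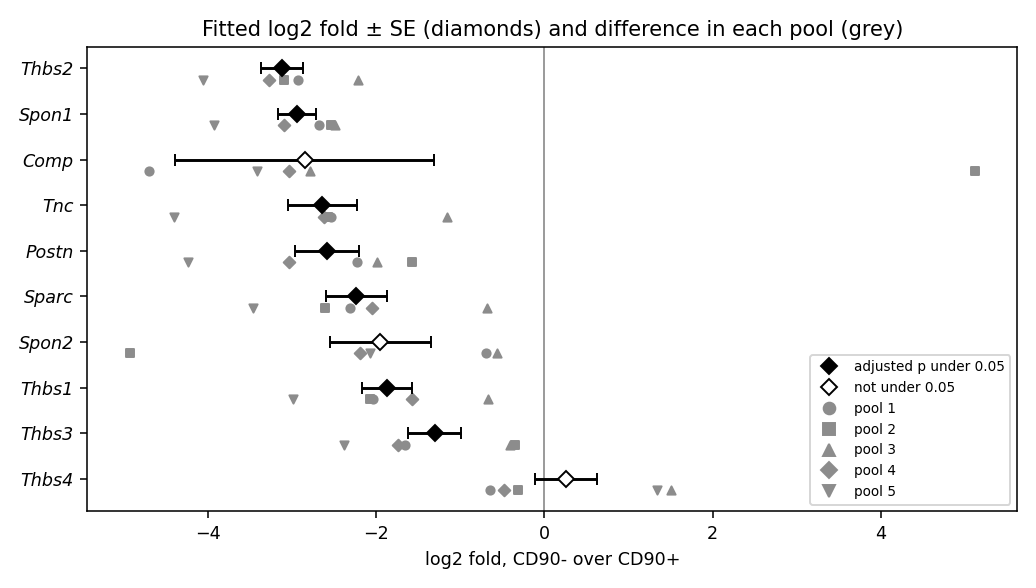
Fitted log2 fold of CD90- over CD90+ for each gene (diamonds, bars give 1 SE; filled where the adjusted p is under 0.05) with the log2 CPM difference of every pool in grey, 1 shape per pool. Thbs2 and Spon1 lie lowest among the genes called, pool 2 of Comp stands at the far right, and Thbs4 straddles 0.

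Proximal promoter sequence is shown for Thbs2, the most reduced member, for Sparc, the most abundant one, and for Thbs4, whose log2 fold was nearest to 0, so that their letters can be compared. RefSeq promoter windows (assembly GRCm38.p6) matched 6 of the 10 genes. Each line gives the 250 bases before the annotated start, 5′ to 3′ on the gene's strand, with capitals marking matches on either strand to CAGAC (the core of the SMAD element), GGAATG (TEAD) and CCAAT (the NF-Y box).
Thbs2, chr17:14694263-14694512, minus strand: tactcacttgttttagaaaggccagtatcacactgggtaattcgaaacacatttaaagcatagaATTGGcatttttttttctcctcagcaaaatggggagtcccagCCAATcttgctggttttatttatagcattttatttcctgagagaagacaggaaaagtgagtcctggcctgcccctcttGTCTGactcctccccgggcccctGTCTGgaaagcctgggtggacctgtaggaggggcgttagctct
Sparc, chr11:55420081-55420330, minus strand: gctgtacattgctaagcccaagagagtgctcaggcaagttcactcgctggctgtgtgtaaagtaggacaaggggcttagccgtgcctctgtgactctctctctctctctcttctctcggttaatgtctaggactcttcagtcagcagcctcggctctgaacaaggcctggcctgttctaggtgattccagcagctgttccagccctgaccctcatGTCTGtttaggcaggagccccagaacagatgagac
Thbs4, chr13:92794819-92795068, minus strand: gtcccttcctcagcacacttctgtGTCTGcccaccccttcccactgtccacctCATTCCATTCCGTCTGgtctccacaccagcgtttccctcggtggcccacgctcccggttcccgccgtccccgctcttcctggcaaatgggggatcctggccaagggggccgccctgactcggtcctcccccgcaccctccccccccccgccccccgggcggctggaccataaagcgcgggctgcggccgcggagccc

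CAGAC was matched in 5 of the 8 windows of the 6 genes, against 42.2% of 32851 promoter windows of the same length, and CCAAT in 2 of 8, against 33.8%. Thbs2 and Thbs4 each held CAGAC 2 times and Sparc held it 1 time. GGAATG was matched only in Thbs4 among the 8 windows, 2 times with an overlap of a single base, and in 12.6% of all windows. CCAAT was matched in Thbs2 and Thbs3. The E-box CANNTG was matched in 6 of 8 windows, against 66.2%. The 2 windows of Tnc overlap, and the same CAAATG and CAACTG matches lie in both. TGANTCA (AP-1) and the CArG box (SRF) were matched in 0 of 8, against 6.75% and 1.47% of all windows. The motifs were searched on both strands, and these matches are letters in a window, since no binding was measured.

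Of the spondins, secreted proteins first described in the floor plate of the neural tube, Spon1 (F-spondin) fell and Spon2 (mindin) did not pass. Spon1 was at 86.1, 74.9, 26.6, 50.1 and 30.5 CPM in CD90- and at 552, 433, 149, 426 and 464 CPM in CD90+ libraries. Both fractions were lowest in pool 3, and the fractions did not overlap. The log2 fold was -2.94 (SE 0.23, edgeR adjusted p = 0.00034), and the within-pool differences of pools 1 to 4 spanned only -3.09 to -2.48, with -3.92 in pool 5.

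Spon2, an integrin ligand that also acts in innate immunity, was at 12.0, 0.603, 24.7, 10.8 and 7.57 CPM in CD90- and at 19.5, 20.2, 36.6, 49.5 and 32.1 CPM in CD90+ libraries. It was lower in 5 of 5 pools, but the CD90- library of pool 3 overlapped the CD90+ libraries of pools 1 and 2. The CD90- library of pool 2 held 18 reads, against 815 in its CD90+ partner. The log2 fold was -1.95 (SE 0.60, edgeR adjusted p = 0.0764). Without pool 2 it was smaller, -1.37, yet passed (adjusted p = 0.0364), in a fit that called 674 of 15545 tested genes lower. Spon2 was not called without pool 1, 3, 4 or 5 (edgeR adjusted p = 0.102, 0.0676, 0.151 and 0.179). DESeq2 and edgeR without a filter on low counts also called Spon2, among 1814 of 14781 and 1598 of 28069 tested genes called lower. The gap between Spon1 and Spon2 averaged -0.85 in log2 (SD 1.87, n = 5) and was below 0 in 4 of 5 pools (exact paired permutation p = 0.375, adjusted p = 0.75). Pool 2 alone stood at 2.39, and without it the gap was -1.66 (SD 0.51, n = 4; exact p = 0.125, the smallest that 4 pools allow).

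Tenascin-C (Tnc), an adhesion-modulating glycoprotein of tumour and wound stroma, was at 173, 169, 149.7, 167 and 52.9 CPM in CD90- and at 1001, 1002, 334, 1029 and 1118 CPM in CD90+ libraries. Within each fraction 4 libraries were close together and 1 was low, pool 5 in CD90- and pool 3 in CD90+. The fractions did not overlap, and the log2 fold was -2.64 (SE 0.41, edgeR adjusted p = 0.00638).

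Periostin (Postn), which binds collagen and BMP1 and supports collagen cross-linking, was at 39.5, 33.8, 15.4, 19.4 and 9.09 CPM in CD90- and at 184, 101, 61.0, 159.6 and 172 CPM in CD90+ libraries. The highest CD90- library stayed below the lowest CD90+ library, that of pool 3. The log2 fold was -2.58 (SE 0.38, edgeR adjusted p = 0.00561), and without pools 4 and 5 it was -1.97 (adjusted p = 0.00648). Tnc and Postn had nearly the same mean difference, with a gap of -0.05 (SD 0.70, n = 5; exact paired permutation p = 0.875, adjusted p = 0.875).

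Sparc, a collagen-binding glycoprotein also called osteonectin, was the most abundant member in CPM. It was at 534, 467, 1799, 679 and 198 CPM in CD90- and at 2640.3, 2832, 2873, 2814 and 2188 CPM in CD90+ libraries. The CD90+ libraries were tightly grouped, whereas the CD90- library of pool 3 lay far above the other CD90- libraries and still below every CD90+ library. Its log2 fold was -2.23 (SE 0.36, edgeR adjusted p = 0.00664), and the call did not hold without pools 4 and 5 (-1.92, adjusted p = 0.0644). Sparc alone made up 38.9 to 67.0% of the summed CPM of the 10 genes in CD90- and 42.4 to 63.3% in CD90+ libraries, highest in pool 3 in both.

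Levels were compared between genes as CPM per kilobase of effective transcript length. In the CD90+ fraction the order was Sparc at 1713 ± 177, Thbs1 at 187 ± 44.4, Tnc at 173 ± 68.4, Spon1 at 72.0 ± 27.4, Postn at 67.2 ± 22.4, Thbs2 at 62.9 ± 19.3, Thbs4 at 31.5 ± 25.4, Thbs3 at 30.2 ± 12.4, Spon2 at 20.7 ± 8.71 and Comp at 1.53 ± 1.37 CPM per kilobase (SD, n = 5). Sparc lay above Thbs1, and Spon2 above Comp, in every library and without overlap of their ranges. All other neighbours in this order overlapped, although Tnc exceeded Spon1 and Thbs2 exceeded Thbs4 in 5 of 5 libraries.

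In the CD90- fraction the order changed below Thbs1. Sparc was at 439 ± 324, Thbs1 at 57.6 ± 28.3, Thbs4 at 31.6 ± 15.7, Tnc at 27.8 ± 11.1, Postn at 12.7 ± 8.44, Thbs3 at 11.3 ± 4.53, Spon1 at 9.79 ± 4.69, Spon2 at 7.41 ± 5.36, Thbs2 at 7.21 ± 2.28 and Comp at 0.525 ± 0.585 CPM per kilobase (SD, n = 5). Sparc against Thbs1 and Thbs2 against Comp were again the neighbours without overlap. Thbs4 moved from place 7 in the CD90+ to place 3 in the CD90- fraction, and Thbs2 from place 6 to place 9.

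**Figure D3:**
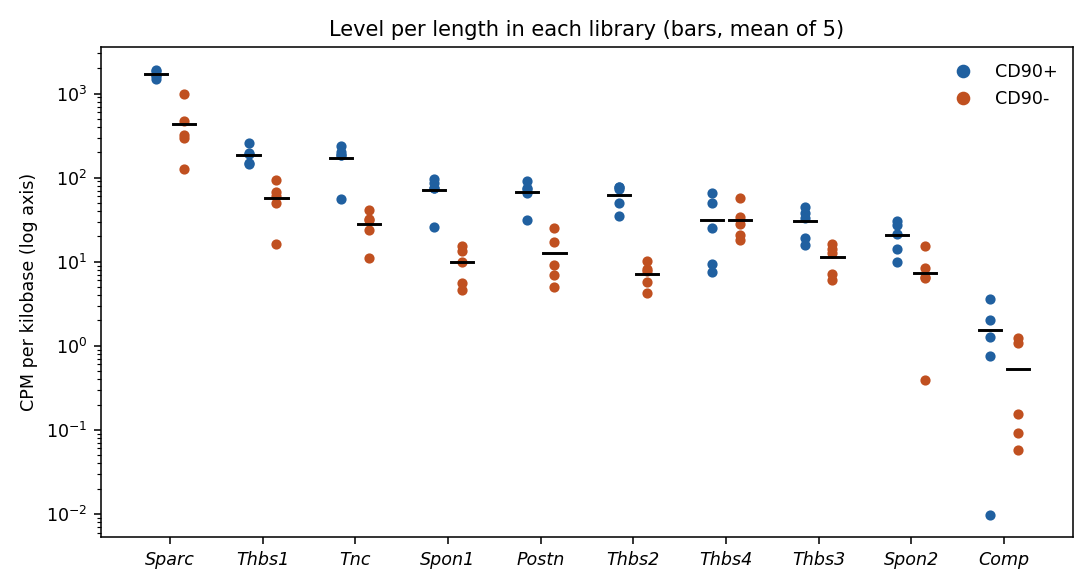
CPM per kilobase of effective length (log axis) of the 10 genes in every CD90+ (blue) and CD90- (orange) library, in the order of the CD90+ mean, with bars at the mean of 5 libraries. Sparc stands above all others in both fractions, and the CD90- points of Thbs4 lie inside the wider range of its CD90+ points.

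Because the fibroblast markers themselves fell, each gene was also set against their summed CPM in the same library, a comparison chosen after the values were seen and given with no test. That sum is made up mostly of collagen I and III transcripts, and its log2 difference averaged -2.28 (SD 1.03, n = 5). Sparc moved nearly in step with it, at 0.06 ± 0.15 (SD, n = 5) relative to the sum. Thbs2 remained lower relative to the sum in 5 of 5 pools, at -0.84 ± 0.55. Spon1, at -0.67 ± 0.82, and Tnc, at -0.38 ± 0.51, were lower in 4 of 5 pools, Postn, at -0.34 ± 1.08, in 3 and Spon2, at 0.15 ± 1.58, in 2. The means of Spon1, Tnc, Postn and Spon2 all lay within 1 SD of 0. Thbs3, at 0.97 ± 0.90, and Thbs4, at 2.55 ± 1.25, were higher relative to the sum in 5 of 5 pools, and Thbs1, at 0.41 ± 0.27, in 4 of 5. No such value is given for Comp, which had as few as 1 read in a library.

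**Figure D4:**
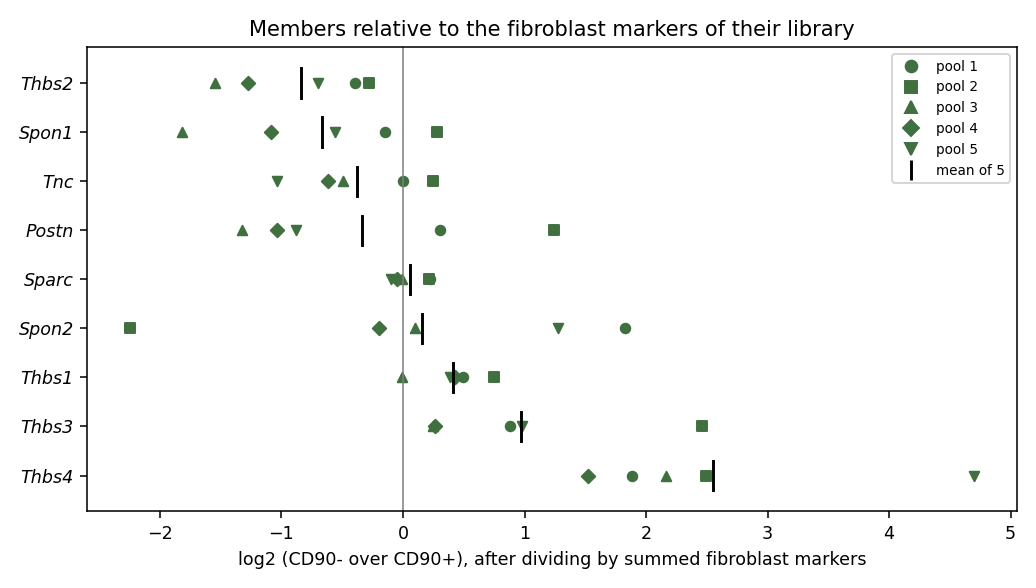
Log2 ratio of CD90- over CD90+ for each gene but Comp, after division by the summed CPM of 9 fibroblast markers in the same library, with 1 marker shape per pool and a bar at the mean of 5 pools. Sparc sits at 0, Thbs2 to the left in every pool and Thbs4 to the right in every pool.

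The similarity of the profiles was described by the root-mean-square distance of log2 CPM over the 10 libraries, each gene centred on its own mean. Libraries of a fraction and of a pool are shared by all genes, so these distances carry no test. Among the members, Spon1 and Postn were closest (0.34), followed by Tnc and Postn (0.39) and Thbs1 and Sparc (0.40). Among tested genes of at least moderate abundance, Sparc lay nearest to Fstl1 (0.14), itself a SPARC-family gene, and to the proteoglycan Bgn (0.17), against a median distance of 1.36 to 6836 genes. Spon1 lay nearest to Col8a1 (0.24) and Nkd2 (0.24), Postn to Col8a1 (0.32) and Serpine2 (0.32), and Thbs2 to Col8a2 (0.31) and Itm2a (0.32). Tnc lay nearest to Lrrc32 (0.27) and Adamts12 (0.34), Thbs1 to Synpo (0.19) and Kalrn (0.21), and Thbs3 to Wnt5a (0.19) and Kremen1 (0.23). The nearest genes lay farther off for Spon2 (Upk1b at 0.61, Plagl1 at 0.61), Thbs4 (Fhl2 at 0.61, Naa30 at 0.64) and Comp (Saraf at 1.499, Sema7a at 1.64). Median distances to all genes compared were 1.72 for Spon2, 1.07 for Thbs4 and 2.15 for Comp, and 0.86 to 1.66 for the other members.

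Reads of Thbs1, Thbs2, Thbs4 and Spon1 came almost entirely from 1 transcript each, at 97.5 to 99.9% of the gene's reads on average. Tnc, Sparc, Thbs3 and Spon2 had at least 2 transcripts with 10% of the reads or more. The share of the leading one was compared within pools for the first 3, and Spon2 was left out because its CD90- library of pool 2 held fewer than 20 reads. For Tnc, ENSMUST00000107377.10 took 74.8% ± 14.3 of the reads in CD90- and 80.1% ± 3.05 in CD90+ libraries (SD, n = 5; exact paired permutation p = 0.5). For Sparc, ENSMUST00000108858.8 took 62.4% ± 7.34 against 60.0% ± 4.35 (SD, n = 5; exact p = 0.375). For Thbs3, ENSMUST00000029682.11 took 60.7% ± 18.2 against 75.1% ± 10.2 (SD, n = 5; exact p = 0.375). The adjusted p was 0.5 for each over the 3 genes, so no difference in transcript use passed the test, and 5 pools allow no exact p under 0.0625. The Thbs3 difference of -14.4 points ranged from -21.7 points without pool 1 to -5.27 points without pool 5 and was -3.73 points in TPM, where a short processed transcript (ENSMUST00000126700.2) led with a mean share of 49.0%. The Tnc difference of -5.28 points ranged from -8.54 points without pool 3 to -0.11 points without pool 5, and the Sparc difference of 2.35 points from 0.935 points without pool 3 to 4.25 points without pool 2. In the CD90- library of pool 2, none of the 18 Spon2 reads was assigned to its leading transcript, and 88.9% fell on a retained-intron transcript (ENSMUST00000201199.2).

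Receptors and binding partners of these proteins were divided between the fractions. Of 22 listed, 20 were tested, 6 fell and 3 rose, with a median log2 fold of -0.31. Over all 15378 tested genes 7.05% were called lower and 5.83% higher. Those that fell included Lrp1, the endocytic receptor that clears thrombospondins (-1.998, SE 0.28, edgeR adjusted p = 0.0038), and Itgb5, an integrin chain that pairs with the alpha-v chain (-1.94, SE 0.24, adjusted p = 0.00261). Itga3 (1.76, SE 0.18, adjusted p = 0.00142) and Itga6 (2.35, SE 0.26, adjusted p = 0.00196), integrin chains that are laminin receptors of epithelia, rose, as did the myeloid integrin Itgam (2.68, SE 0.65, adjusted p = 0.0268), named after its values were seen. In the same libraries 7 of 10 cancer epithelial markers rose. The summed level of 8 macrophage markers was 17.3 to 47.95 CPM in CD90- and 7.73 to 14.4 CPM in CD90+ libraries, with 1 of 7 tested called higher. Whether either marker list bears on these integrins was not tested. Among the thrombospondin receptors, also named after their values were seen, Cd47 had a log2 fold of -0.23 (adjusted p = 0.611), and Cd36 was at 0 in every CD90+ library and at most 0.517 CPM in CD90- libraries.

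Among other matricellular genes, more fell than rose. Of 20 listed, 17 were tested, 8 fell and 1 rose, with a median log2 fold of -1.71. The shares over all tested genes were 7.05% lower and 5.83% higher. Smoc2 (-2.20, SE 0.31, adjusted p = 0.00353) and Fstl1 (-2.25, SE 0.31, adjusted p = 0.00398), both relatives of SPARC, fell, as did Tgfbi, the paralog of periostin (-1.45, SE 0.23, adjusted p = 0.00517), all by edgeR. Spock3, a testican proteoglycan of the SPARC family, rose (2.46, SE 0.38, adjusted p = 0.00424). Osteopontin (Spp1), named after its values were seen, was at 1730.1 ± 1112 CPM in CD90- and 609 ± 288 CPM in CD90+ libraries (SD, n = 5), higher in 5 of 5 pools without passing (log2 fold 1.31, edgeR adjusted p = 0.0855).

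Matrix and growth factor partners, of which Col1a1, Col1a2, Col3a1 and Dcn are also fibroblast markers here, were lower with few exceptions. Of 15 listed and tested, 12 fell and 0 rose, with a median log2 fold of -1.78. The shares over all tested genes were 7.05% lower and 5.83% higher. Mmp2, the gelatinase cleared through the THBS2 and LRP1 route, fell by 2.48 on the log2 scale (SE 0.30, edgeR adjusted p = 0.00302). The ligand Tgfb3 had a log2 fold of -1.78 (SE 0.22), the fibrillar collagen Col5a1 of -2.16 (SE 0.29) and the membrane protease Mmp14 of -1.26 (SE 0.18), with edgeR adjusted p values of 0.0022, 0.00345 and 0.00346. Of the 52 tested genes of the 3 lists together, 26 were called lower and 4 higher. Over all 15378 tested genes 1084 were called lower and 896 higher. When pool 1 was left out, the counts were 16 and 3 for the lists and 367 and 308 for all genes. When pools 4 and 5 were left out, they were 9 and 3 for the lists and 184 and 357 for all genes. When the fit ignored the pairing of libraries by pool, they were 14 and 2 for the lists and 544 and 421 for all genes. When the share of mitochondrial rRNA entered the model, they were 0 and 0 for the lists and for all genes.

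**Figure D5:**
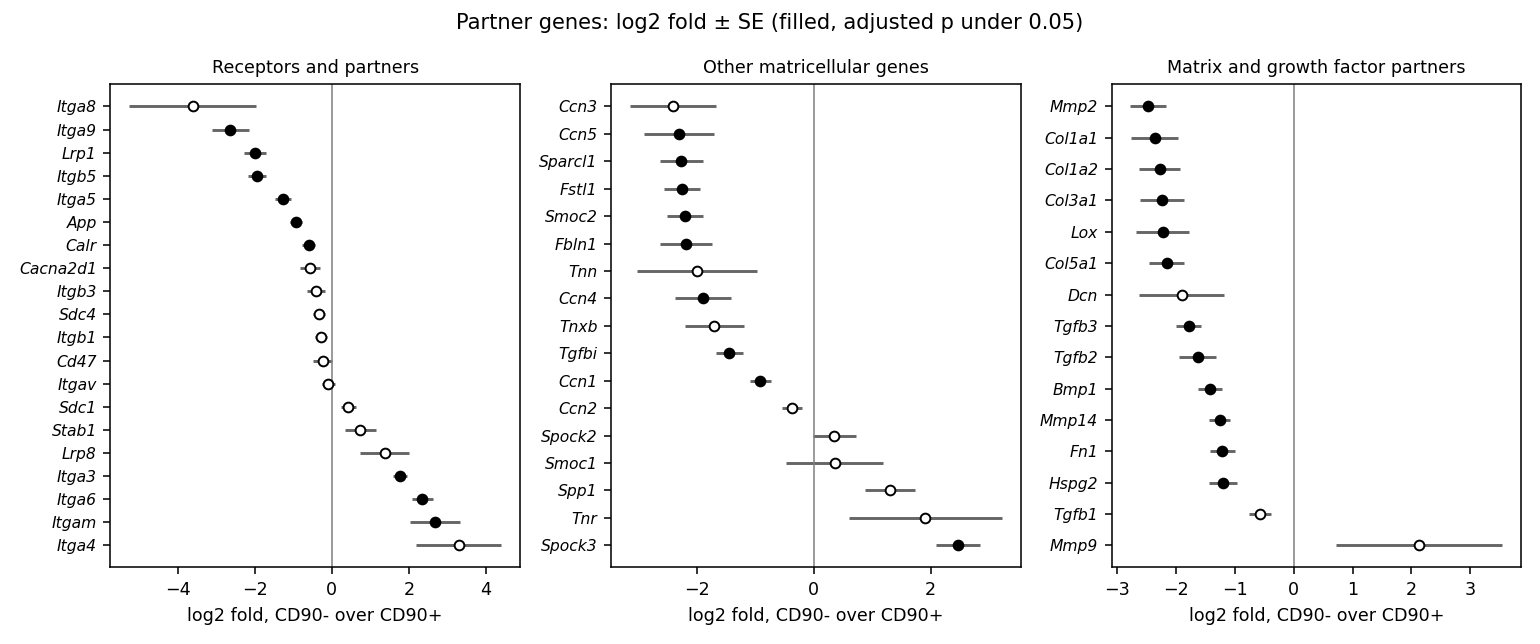
Log2 fold of CD90- over CD90+ (bars, 1 SE) of the tested genes of the 3 partner lists, filled where the edgeR adjusted p is under 0.05. Filled points of the middle and right panels lie left of 0 apart from Spock3, while the left panel has filled points on both sides.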

How the data were processed

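RNA-seq was measured in 10 libraries (2 fractions of 5 tumour pools). The authors deposited an estimated count, a TPM and an effective length per transcript and library, made with Salmon 1.9.0 against GRCm39 (mm39) per the submitters' processing notes; its annotation release, strand setting and bias options are not given here. Libraries were made from low-input total RNA of variable integrity with PCR and no molecular identifiers, and with a kit that keeps strand, per the labels' protocols, so counting error understates the true error.

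Transcripts were matched without version to GENCODE M21 names (133666 of 144584; unmatched ones held 3.63 to 12.1% of reads), and estimated counts were summed per gene and rounded. edgeR 4.0.16 in R 4.3.3 was fitted to all 15378 genes passing filterByExpr, with TMM, robust quasi-likelihood and the pool as a block, because both fractions of a pool carry the same animal numbers in their titles. Adjusted p values are Benjamini-Hochberg over all genes, called under 0.05; the SE follows from the F statistic. Deposited TPM entered only the alternative for transcript shares and the weights of a gene's mean effective length. As a check of the pairing, deviations from the fraction means were compared between the libraries of a pool, with correlations of 0.06, 0.00, 0.46, 0.03 and 0.19. No same-fraction libraries agreed within counting noise (chi-square per degree of freedom of at least 39.3). The pipeline was tested on simulated data.

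Named were the 10 members, Thy1, up to 4 genes per partner list by smallest p, and the 2 nearest genes per member by profile (mean log2 CPM of at least 3, prior count of 2); genes named outside this rule are marked in the text as named after their values were seen. Members, lists and tests were chosen with earlier results of these data known. Marker lists without a value in the Results, namely mesothelial, neutrophil and lymphocyte, Schwann and acinar, had 1 gene, 0, 0 and 0 genes called. The mesothelial gene was Msln, named after its values were seen, which rose (log2 fold 1.40). The median log2 fold of that list was -1.57. Of the pericyte and smooth muscle list 1 gene was called lower, and of the platelet list 0. Alternatives were no block, other normalizations, DESeq2 1.42.0, limma-voom (limma 3.58.1), other filters, a length offset, gene subsets, the mitochondrial rRNA share as a covariate, pools left out, a threshold of 0.01, a prior count of 0.5 and deposited TPM.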

Additional observations from a re-analysis of the deposited data

Results flagged for a closer look

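In 3 of 20 groups of 5 libraries (10 genes in 2 fractions) 1 library lay far from the other 4 by Dixon's ratio, which chance gives in about 1 of 20 groups. Comp in the CD90- library of pool 2 was at 2.98 CPM, above the other CD90- libraries (0.138 to 0.702 CPM). Tnc in the CD90- library of pool 5 was at 52.9 CPM, below the others (149.7 to 173 CPM), and Tnc in the CD90+ library of pool 3 was at 334 CPM, below the others (1001 to 1118 CPM).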

How the results depend on the processing

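Over 17 alternatives Thbs1, Thbs2, Spon1, Tnc and Postn kept a negative log2 fold and were called in 16 each. The remaining one was edgeR with a covariate for the share of mitochondrial rRNA. It called 0 of 15378 tested genes, and so 0 of 10 members and 0 partner genes, with 6 members and 882 of all genes at an unadjusted p under 0.05. The share of mitochondrial rRNA was higher in the CD90- library in 5 of 5 pools, so it and the fraction cannot be told apart. In that fit Thbs4 had a log2 fold of 2.38 (adjusted p = 0.751). Leaving out 1 pool at a time gave 6 to 9 members lower, 16 to 27 partner genes lower and 3 to 4 higher. Over all genes these fits called 367 to 1199 lower and 308 to 820 higher, against 1084 and 896 with all pools. Partner genes called lower numbered 14 with no replicate block (544 of all genes), 9 without pools 4 and 5 (184) and 17 at an adjusted p threshold of 0.01 (396). Partner genes called higher numbered 2 with no replicate block (421 of all genes) and 7 both with DESeq2 (1638) and with no filter on low counts (1336). The block changed no call of a member, since 7 were lower without it. The sign changed for Thbs4 (-0.132 with no replicate block, -0.062 without pool 3, -0.039 without pool 5; -0.062 to 0.504 over the pools left out). It also changed for the gap of Comp to Thbs2 (-0.359 without pool 2, up to 2.13 without pool 1, against 1.36 with all pools) and of Tnc to Postn (0.021 without pool 1 and 0.191 without pool 2, down to -0.264 without pool 3). The cause of these changes was not tested. Recomputing the partner lists under these alternatives was chosen after seeing the data. Depth limits Comp most, with 1 to 4 reads in 3 libraries, and 4 pools allow no exact p under 0.125.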
